A study of Oryza sativa Indica Group with 8 samples.

Results

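The late salt shock in rice plants that had already met salt was followed in leaf messenger RNA by comparing 2 libraries of plants shocked at both stages with 2 libraries of plants shocked at the early stage only. These 4 libraries were chosen by their titles from the 8 in the series. All plants were of the salt-sensitive indica genotype BRS Ligeirinho, germinated for 7 days and then grown in washed sand with nutrient solution in a greenhouse. The early shock came at the vegetative stage V4, when the collar of the fourth leaf has formed, and the late shock at R0-R1, when the panicle starts to develop. The double-shock group met salt at both stages (titled Reprodutive and vegetative), and the early-shock group only at V4 (titled Vegetative). Both groups therefore share the early shock and differ in the late one. The remaining 4 libraries, 2 of plants shocked at R0-R1 only (late-shock group) and 2 of plants never shocked (control), were used to set the same late shock beside it without an early one. Salt dose, shock length and the interval before leaves were taken were not given in the sources used here. The late shock and any difference in sampling time therefore cannot be told apart. The labels do not state that both libraries of a group are from different plants or pools, and the p-values cover library-to-library spread alone, possibly technical.

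Salt reaches a leaf first as an osmotic stress, which closes stomata and slows growth, and later as sodium that builds up in older leaves. Abscisic acid relays much of the early response. An earlier stress can change the response to a later one, which is called stress memory or priming, and comparing a shock in plants with and without a history is the usual way to look for it. Each library held between 10464740 and 11727657 counted reads, and 18251 of 55986 annotated loci had enough reads to be tested. The count tables name loci by identifier only, and the reference gene table paired 0 of the 55986 with a name. No gene name or role is therefore given, at most 2 identifiers are printed in each direction, and no marker of leaf or of another organ was read. In these identifiers the digits after Os give the chromosome. The other called loci are referred to by direction and by rank of fold change, so that "rise 3" is the locus with the third largest increase. Levels are in CPM, read counts scaled by library size and TMM factors. They are not per length, so they compare libraries for 1 locus, and a locus can have a high CPM because it is long.

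Few loci were called between double-shock and early-shock plants. Of the 18251 tested, 13 (0.0712%) passed an adjusted p of 0.05 in edgeR's quasi-likelihood test, 5 of them higher (0.0274%) and 8 lower (0.0438%) in double-shock plants. The rises were 2.39-fold to 28.7-fold with a median of 2.80-fold, and the falls 1.90-fold to 5.13-fold with a median of 3.45-fold. The median log2 fold change of all tested loci was 0.0039 and the median absolute value 0.186. Without adjustment, p was below 0.05 for 796 higher loci (4.36%) and 784 lower loci (4.3%). In all 13 called loci the 2 libraries of a group lay on the same side of both libraries of the other. That alone was common, since 3549 tested loci (19.4%) had both double-shock libraries above and 3447 (18.9%) below the early-shock libraries. The nearest libraries of the 2 groups were 2.30-fold to 10.6-fold apart in the rises and 1.82-fold to 4.81-fold apart in the falls.

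**Figure D1:**
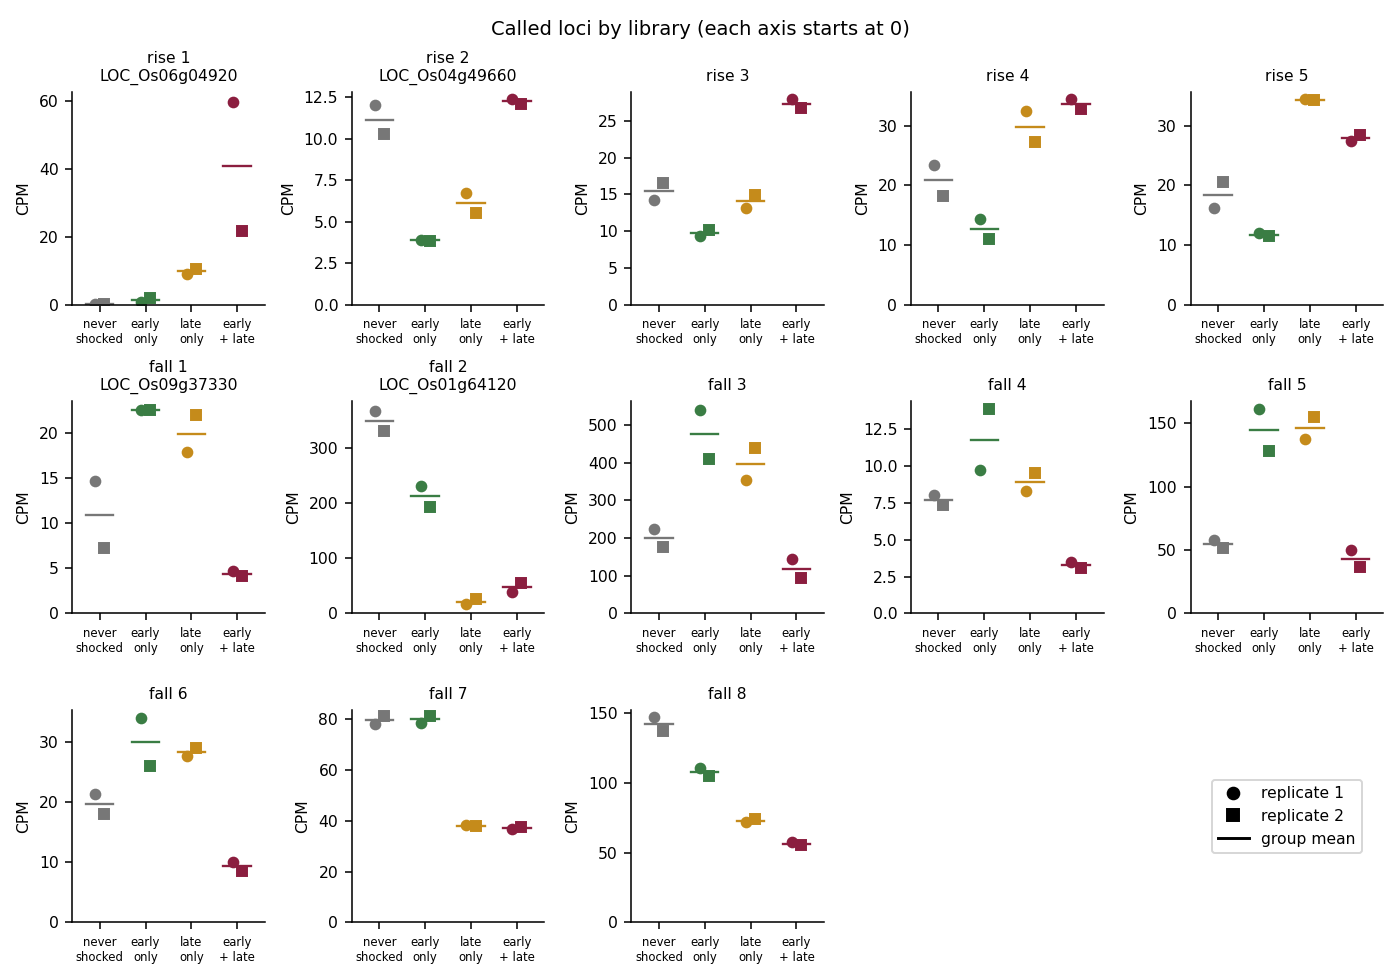
CPM of the 13 called loci in each of the 8 libraries, with every vertical axis starting at 0; circles are replicate 1, squares replicate 2 and lines group means (never shocked is control, early only the early-shock group, late only the late-shock group, early + late the double-shock group). In each panel both early + late libraries lie on one side of both early only libraries, and in falls 1, 3, 4, 5 and 6 the early + late means are below control while both single-shock means are above it.

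LOC_Os06g04920 on chromosome 6 had the largest rise. It stood at 0.680 and 2.05 CPM in the early-shock libraries and at 59.6 and 21.8 CPM in the double-shock libraries, with 7, 25, 611 and 259 reads. The groups were far apart, but double-shock replicate 1 was 2.73 times replicate 2 and the early-shock libraries differed 3.01-fold. The means were 1.37 ± 0.969 and 40.7 ± 26.7 CPM (SD, n = 2), a log2 difference of 4.84 ± 0.57 SE (adjusted p = 0.038 by edgeR). The pooled reads gave a ratio of 27.6 with a 95% exact binomial interval of 19.4 to 40.7, which covers counting error only. In plants without an early shock the locus had 1 and 3 reads in the control libraries and 103 and 109 in the late-shock libraries, a pooled ratio of 54.8 (interval 21.1 to 203, counting error only). From lowest to highest the groups ran control, early shock, late shock, double shock. Neither early shock against control (edgeR adjusted p = 0.59), late against early shock (0.34, same test) nor double against late shock (0.35, same test) passed the threshold, so neighbours in that order were not told apart. Its call was lost without double-shock replicate 1, where the log2 fold change was 3.94 (edgeR adjusted p = 0.14), and held without replicate 2, where it was 5.40 (edgeR adjusted p = 0.0071). Among the other libraries it held without control replicate 1 and was lost without control replicate 2 and without any 1 of the early-shock or late-shock libraries, where the log2 fold change was 4.30 to 5.88.

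LOC_Os04g49660 on chromosome 4 had the second largest rise and the closest replicates among the rises in both groups. Its levels were 3.89 and 3.85 CPM in the early-shock libraries and 12.4 and 12.1 CPM in the double-shock libraries, on 40, 47, 127 and 144 reads. The mean went from 3.87 ± 0.0224 to 12.3 ± 0.177 CPM (SD, n = 2). edgeR gave this an adjusted p of 0.038, at a log2 difference of 1.66 with SE 0.20. Control plants stood at 12.04 and 10.3 CPM, close to the double-shock level, and late-shock plants at 6.73 and 5.55 CPM. The difference between double-shock and control plants was 0.13 on the log2 scale (SE 0.18, edgeR adjusted p = 0.84). Early-shock plants were lowest of the 4 groups, but their difference from control fell just short of the threshold (log2 fold change -1.53, edgeR adjusted p = 0.051).

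LOC_Os09g37330 on chromosome 9 had the largest fall, from 22.5 and 22.6 CPM in the early-shock libraries to 4.68 and 4.13 CPM in the double-shock libraries. The replicates of each group nearly coincided, and the means were 22.6 ± 0.0669 and 4.41 ± 0.390 CPM (SD, n = 2). edgeR gave this an adjusted p of 0.0497, at a log2 difference of -2.36 with SE 0.31. Late-shock plants, at 17.9 and 22.0 CPM, were near the early-shock level. The control libraries stood at 14.7 and 7.24 CPM, between the others. Its adjusted p, shared with rise 4 and fall 4, was the highest of the called loci, and RLE factors took it to 0.0501 in the same test.

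LOC_Os01g64120 on chromosome 1 had the second largest fall. It went from 232.1 and 193 CPM in the early-shock libraries to 39.8 and 54.8 CPM in the double-shock libraries, on 2389, 2359, 408 and 650 reads. The means were 212.8 ± 27.3 and 47.3 ± 10.6 CPM (SD, n = 2). edgeR gave this an adjusted p of 0.026, at a log2 difference of -2.17 with SE 0.22. Control plants were highest, at 368 and 332 CPM, and late-shock plants lowest, at 17.4 and 25.5 CPM. The groups fell into a high pair and a low pair by the late shock. Within the high pair early-shock and control plants were not told apart (edgeR adjusted p = 0.40), nor were double-shock and late-shock plants within the low pair (0.24, same test).

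The other 3 rises were smaller. Rise 3, on chromosome 5, was at 9.33 and 10.2 CPM in early-shock and 28.0 and 26.8 CPM in double-shock libraries (adjusted p = 0.026 by edgeR, at a log2 difference of 1.49 ± 0.15 SE). Rise 4, on chromosome 4, was at 14.3 and 10.99 against 34.4 and 32.8 CPM (adjusted p = 0.0497 by edgeR, at a log2 difference of 1.41 ± 0.18 SE). Rise 5, on chromosome 12, was at 11.9 and 11.5 against 27.5 and 28.4 CPM (adjusted p = 0.038 by edgeR, at a log2 difference of 1.25 ± 0.15 SE). In rises 2 to 5 the early-shock mean was the lowest of the 4 groups. In rises 1 to 4 the double-shock mean was the highest, while in rise 5 the late-shock libraries stood above it, at 34.5 and 34.3 CPM.

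The other 6 falls covered a wide range of levels. Fall 3, on chromosome 6, had the highest CPM, at 539.9 and 410.3 CPM in early-shock and 144.5 and 92.8 CPM in double-shock libraries (adjusted p = 0.043 by edgeR, at a log2 difference of -2.002 ± 0.25 SE). Fall 4, on chromosome 3, had the lowest CPM, at 9.71 and 13.9 against 3.51 and 3.12 CPM (adjusted p = 0.0497 by edgeR, at a log2 difference of -1.83 ± 0.24 SE). Fall 5, on chromosome 2, was at 161 and 128 against 49.8 and 36.8 CPM (adjusted p = 0.026 by edgeR, at a log2 difference of -1.74 ± 0.18 SE). In each of these 3 loci the gap between the groups was wider than the difference between the libraries of either group. Fall 6, on chromosome 5, was at 34.1 and 26.1 against 10.1 and 8.51 CPM (adjusted p = 0.026 by edgeR, at a log2 difference of -1.69 ± 0.18 SE). Fall 7, on chromosome 12, was at 78.6 and 81.4 against 37.0 and 37.6 CPM (adjusted p = 0.026 by edgeR, at a log2 difference of -1.10 ± 0.11 SE). Fall 8, on chromosome 9, was at 110.6 and 105 against 57.5 and 55.6 CPM (adjusted p = 0.038 by edgeR, at a log2 difference of -0.93 ± 0.11 SE), and was the only call below 2-fold. The last 2 were the smallest falls and among the most even between replicates.

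The second question was whether these loci responded in the same way to a late shock without an early one. That comparison, late-shock against control plants, shares no library with the first, although both use the same estimate of spread at each locus, so a locus of small spread passes more easily in both. It called 112 of the 18251 loci (0.614%), 41 higher (0.225%) and 71 lower (0.389%). Of the 13 loci, 5 were called there in the same direction, 1 in the opposite direction and 7 were not called. The sign of the fold change was the same for 6 of the 13 and opposite for 7, where 53.3% of all tested loci had the same sign in both comparisons. The difference between the 2 late-shock differences was tested as an interaction, which called 18 loci (0.0986%), 6 of them among the 13. Those 6 were picked out by a difference that is also part of the interaction, so their number is a description and no independent support.

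The 5 loci called in both histories were rises 1 and 5 and falls 2, 7 and 8. Fall 7 fell in both: its levels were 78.1 and 81.4 CPM in control and 38.2 and 38.1 CPM in late-shock plants, a log2 difference of -1.06 ± 0.11 SE (adjusted p = 0.010 by edgeR) beside -1.10 in plants with an early shock. Its interaction was -0.04 ± 0.15 SE (adjusted p = 0.96 by edgeR). Fall 8 went from 148 and 138 to 71.9 and 74.1 CPM (adjusted p = 0.012 by edgeR, at a log2 difference of -0.97 ± 0.11 SE), with an interaction of 0.04 ± 0.16 SE (adjusted p = 0.96 by edgeR).

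Rise 5 went from 16.2 and 20.6 CPM in control to 34.5 and 34.3 CPM in late-shock plants (adjusted p = 0.033 by edgeR, at a log2 difference of 0.90 ± 0.14 SE). Its interaction, 0.35 (SE 0.20), did not pass (edgeR adjusted p = 0.62). LOC_Os01g64120 fell in both, by a log2 difference of -4.03 ± 0.24 SE without an early shock (adjusted p = 0.00093 by edgeR) beside -2.17 with one, and its interaction of 1.86 (SE 0.30) missed the threshold (edgeR adjusted p = 0.070). For LOC_Os06g04920 the interaction was -0.85 with an SE of 1.26 (edgeR adjusted p = 0.88), so a difference in size between the histories was not measured closely.

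**Figure D2:**
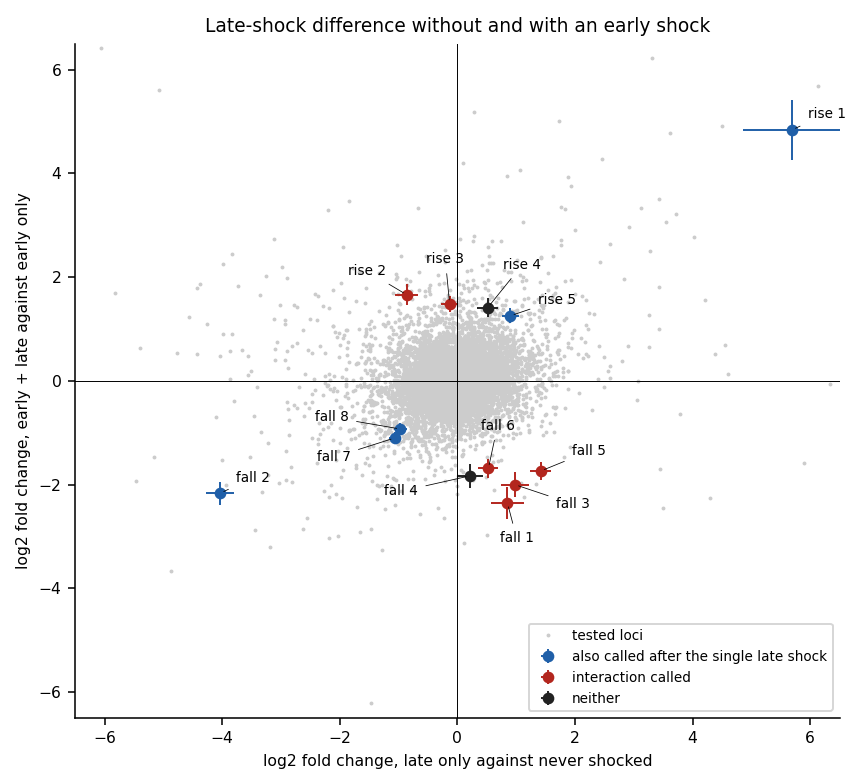
Log2 fold change of double-shock against early-shock plants (vertical) and of late-shock against control plants (horizontal) for each tested locus in grey and the 13 called loci in colour, with bars of 1 SE; 13 tested loci lie beyond the plotted range of 6.5. Rises 1 and 5 and falls 2, 7 and 8 lie in the quadrants of equal sign, while the loci with a called interaction lie in those of opposite sign.

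Another 6 loci, rises 2 and 3 and falls 1, 3, 5 and 6, had a called interaction. Fall 5 was the clearest: its level went up from 57.7 and 51.7 CPM in control to 138 and 155 CPM in late-shock plants (adjusted p = 0.017 by edgeR, at a log2 difference of 1.42 ± 0.18 SE), and down in plants with an early shock. Its interaction was -3.16 ± 0.25 SE (adjusted p = 0.0066 by edgeR). Falls 1, 3 and 6 had log2 fold changes of 0.85, 0.98 and 0.53 between late-shock and control plants, none of which passed. Their interactions were -3.21 ± 0.42 SE (adjusted p = 0.042 by edgeR), -2.98 ± 0.34 SE (adjusted p = 0.027 by edgeR) and -2.22 ± 0.25 SE (adjusted p = 0.027 by edgeR). LOC_Os04g49660 had an interaction of 2.52 ± 0.28 SE (adjusted p = 0.027 by edgeR), from a log2 fold change of -0.86 without an early shock that did not pass (edgeR adjusted p = 0.096). Rise 3 had an interaction of 1.62 ± 0.21 SE (adjusted p = 0.042 by edgeR), with a log2 fold change of -0.13 (SE 0.15) in plants without an early shock. The remaining 2 loci, rise 4 and fall 4, passed neither test: their interactions were 0.90 ± 0.25 SE (adjusted p = 0.30 by edgeR) and -2.05 ± 0.33 SE (adjusted p = 0.070 by edgeR).

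The group means of falls 1, 3, 4, 5 and 6 had a common order. After a single shock of either kind they stood above control, and after both shocks below it. This order held for 5 of the 8 falls, for 279 of the 784 loci lower at an unadjusted p below 0.05 (35.6%) and for 1477 of all 18251 tested loci (8.09%). Choosing loci that are lower in double-shock than in early-shock plants favours this order, so the counts are descriptive. The steps themselves were mostly not significant. Early-shock plants were above control by 0.61 to 1.40 on the log2 scale with 0 of 5 called (0.0329% of all tested loci). Late-shock plants were above control by 0.21 to 1.42 with 1 of 5 called (0.614% of all tested loci). Double-shock plants were below control by a log2 fold change of -1.33 to -0.34 with 0 of 5 called (0.164% of all tested loci). In fall 3 the libraries stood at 224 and 177 CPM in control and 353 and 438 CPM in late-shock plants. In fall 6 they stood at 21.3 and 18.0 and at 27.7 and 29.1 CPM, and in fall 4 at 8.03 and 7.34 and at 8.31 and 9.54 CPM. The reverse order, below control after either single shock and above it after both, was seen in rises 2 and 3 and in 1525 of all tested loci (8.36%). It held for 218 of the 796 loci higher in double-shock than in early-shock plants at an unadjusted p below 0.05 (27.4%). Choosing such higher loci likewise favours it. In rises 2 and 3 early-shock plants differed from control by log2 fold changes of -1.53 and -0.66, and late-shock plants by -0.86 and -0.13. Double-shock plants differed from control by 0.13 and 0.83. None of these steps was called by edgeR, and in rise 3 the late-shock and control libraries overlapped.

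Overlap of the late-shock differences was also counted over wider lists. Of the 796 loci higher in double-shock than in early-shock plants at an unadjusted p below 0.05, 134 were also higher in late-shock than in control plants at that level, which is 16.8% of the first list and 10.5% of the second. Over all tested loci 7% were higher there. In the opposite direction there were 91 (11.4%), where 7.22% of all tested loci were lower. Of the 784 lower loci, 153 were also lower without an early shock, 19.5% of the first list and 11.6% of the second, and 80 (10.2%) were higher. Both the matching and the opposite shares were thus above the background of all loci, the matching ones by more. Of the 41 loci called higher after the late shock alone, 15 were higher and 4 lower at that level in double-shock against early-shock plants. Of the 71 called lower, 25 were lower and 10 higher. In double-shock against early-shock plants 4.36% of all tested loci were higher and 4.3% lower at that level. The median log2 fold changes of the 41 and the 71 in this comparison were 0.35 and -0.19.

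The called loci were spread over the genome and over levels. The 5 rises lay on 4 chromosomes and the 8 falls on 7. Of the 26 loci next to a called locus in identifier order among those tested, none was called by edgeR, and 4 had a fold change in the same and 2 in the opposite direction at an unadjusted p below 0.05, where 8.66% of all tested loci had such a p. The clearest was the locus after LOC_Os04g49660, with a log2 fold change of 1.31 (edgeR adjusted p = 0.11). By mean CPM, which also reflects length, rises lay between the 42.4 and 66.5 percentiles of all tested loci, and falls between the 41.2 and 97.6 percentiles with a median of 87.4. Among the 4563 loci with the highest CPM, above 35.7, 5 loci fell and 0 rose, and at an unadjusted p below 0.05 there were 250 lower and 164 higher. Among the 4563 with the lowest CPM, below 3.46, 0 loci were called, with 188 higher and 114 lower at that level.

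**Figure D3:**
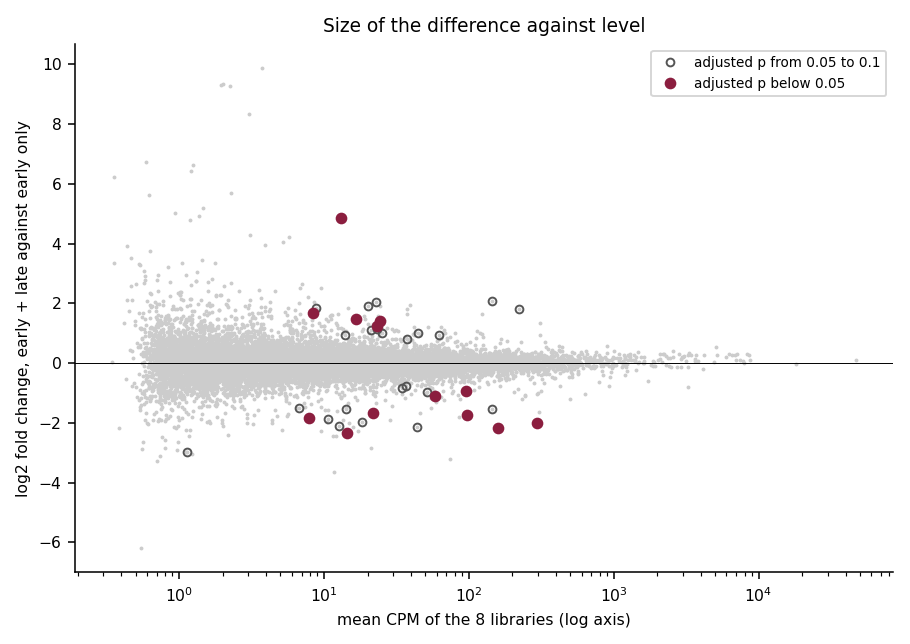
Log2 fold change of double-shock against early-shock plants for each tested locus against its mean CPM over the 8 libraries on a log axis, with the 13 called loci as filled points and the 23 loci of adjusted p from 0.05 to 0.1 as open circles. The largest fold changes lie above 0 at low levels and are not called, and the called loci all lie above 3.46 CPM.

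Most large fold changes were not called. In all, 32 loci were at least 8-fold higher in double-shock plants and 1 of them, LOC_Os06g04920, was called, while 6 were at least 8-fold lower and 0 were called. In 20 of the 32 the level in double-shock replicate 1 was over 4 times that in replicate 2, and in 0 was it the other way round. The share of all tested loci with such a ratio is not given here, so these counts are descriptive. The double-shock means of the 32 had a median of 2.84 CPM, and 10 were at least 5 CPM. In 20 of the 32 the libraries of the groups did not overlap (19.4% of all tested loci, higher). An unadjusted p below 0.05 by edgeR was found in 28 (4.36% of all tested loci, higher). Choosing loci by fold change favours both. Double-shock replicate 1 differed from the other 3 libraries compared in its share of reads aligned to more than 1 place, 13.6% against 9.32% to 9.995%. The part of that share in these differences was not tested. Outside this comparison, control replicate 1 (13.5%) and late-shock replicate 2 (13.8%) had similarly high shares. The correlation of double-shock replicate 1 with replicate 2 was 0.974 across loci on the log2 CPM scale, where early-shock replicate 2 correlated with the latter at 0.977. The early-shock libraries correlated with each other at 0.971, and pairs across the groups at 0.961 to 0.977. Libraries of a group were thus not closer by this measure than all pairs across the groups. The median absolute log2 ratio at 5 CPM or more was 0.163 between double-shock and 0.184 between early-shock libraries. Across the groups it was 0.171 to 0.202. Of the 5 called rises 4 were higher in double-shock replicate 1 than in replicate 2, and of the 8 falls 2 were lower in replicate 1. These differences were mostly small: over the 5 rises the double-shock libraries lay a median of 1.04-fold apart, and at most 2.73-fold, in rise 1.

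Just outside the threshold the differences were of similar size. Another 23 loci had an adjusted p from 0.05 to 0.1, 12 higher and 11 lower, with absolute log2 fold changes of 0.76 to 2.97. In all 23 the libraries of the groups did not overlap, as in 19.4% (higher) and 18.9% (lower) of all tested loci. After the late shock alone 5 of the 23 were called with the same sign and 2 with the opposite sign, where 0.614% of all tested loci were called. A called interaction was found in 5 of the 23 and in 0.0986% of all tested loci. The 23 were chosen by a difference that is also part of the interaction, so that count is a description only. The adjusted p of the called loci themselves ran from 0.026 to 0.0497, so that the boundary between called and not called is not a boundary in size. A further 2 loci had 0 reads in both early-shock libraries and at least 10 in both double-shock libraries, and 0 loci had the reverse. One, on chromosome 2, had 20 and 62 reads in the double-shock, 167 and 24 in the control and 4 and 5 in the late-shock libraries. The other, on chromosome 4, had 11 and 10, 69 and 19, and 0 and 1 reads. Both were thus read in control plants as well, and neither was called. A count of 0 allows up to 3 reads, or 0.246 to 0.291 CPM in the early-shock libraries, for counting error only.

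How many loci were called depended on the test and on single libraries. Over the 17 other fits run, a locus of the 13 kept its call in 4 (fall 4) to 11 (fall 5). Since the libraries of the 2 groups do not overlap in these loci, their direction could not turn in most such fits and is no sign of stability. The fit with a term for the high multiply aligned share could in principle have turned it. Among the libraries compared only double-shock replicate 1 carries that term. All 13 kept their direction in that fit. DESeq2 called 113 loci (0.619%), 52 higher and 61 lower, and the edgeR likelihood ratio test 164 (0.899%), and both lists held all 13. Of the 113, 72 (63.7%) had the same sign after the late shock alone, and DESeq2 called 33 of them there in the same and 9 in the opposite direction, of 434 loci it called after the late shock alone (2.38%). The likelihood ratio test called 603 loci there (3.3%). For the interaction DESeq2 called 175 loci (0.959%) and the likelihood ratio test 249 (1.36%). DESeq2 gave no adjusted p to 4954 loci in the main comparison, 354 after the late shock alone and 0 for the interaction. Its percentages are nevertheless of all 18251 tested loci, so they rest on unlike sets of adjusted loci. With the 4 libraries compared fitted alone, edgeR's quasi-likelihood test called 0 loci, with 1413 at an unadjusted p below 0.05 and a smallest adjusted p of 0.10. It also called 0 without double-shock replicate 1, early-shock replicate 2 or either late-shock library, 2 without early-shock replicate 1, of which 0 were among the 13, and 28 without double-shock replicate 2, of which 25 were higher and 5 were among the 13. Without control replicate 1 it called 19 loci and without control replicate 2 it called 17, with 12 and 10 of the 13 among them. With a term for the high multiply aligned share there were 6 calls, 1 higher and 5 lower, and 4 of them were among the 13. None of the 5 rises was called with that term, at edgeR adjusted p from 0.061 to 0.116, while their log2 fold changes were 1.32 to 4.30. Falls 2, 4, 7 and 8 lost their calls with it as well, at edgeR adjusted p of 0.057, 0.116, 0.054 and 0.087.

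**Figure D4:**
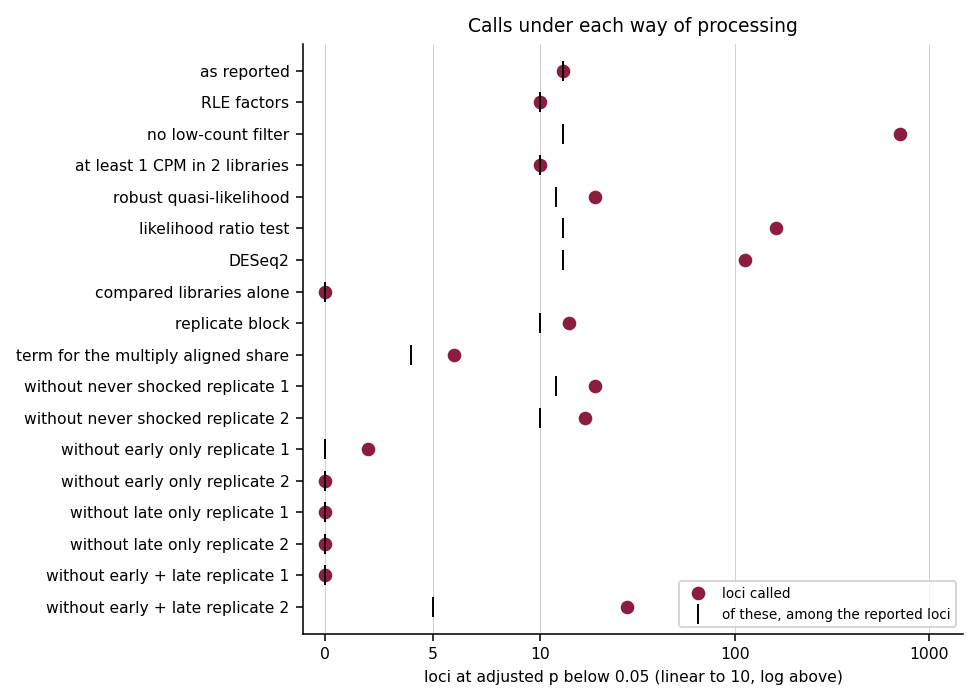
Number of loci called in double-shock against early-shock plants under each way of processing (points) and how many of them are among the 13 reported (vertical ticks); the horizontal axis is linear to 10 and logarithmic above. Leaving out either library of the late-shock group gave 0 calls and leaving out a control library 19 or 17, although neither group is part of the comparison, and DESeq2 and the likelihood ratio test gave 113 and 164 with all 13 among them.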

How the data were processed

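The deposited tables hold the authors' raw read counts, unnormalised, for every annotated locus. TruSeq libraries were prepared out of total RNA, per the labels' protocols. The submitters' processing notes name STAR 2.7, edgeR 3.8, HTSeq 0.11.1, Trimmomatic and FastQC 0.11.7. Genome build, annotation and strand setting were not given in the sources used here. Counts of overlapping or near-identical loci are therefore uncertain. The 5 summary lines of each table held 14.97% to 19.2% of its reads and were left out.

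Loci were kept by filterByExpr on the 4 groups. All 8 libraries were fitted together (edgeR 4.0.16, R 4.3.3, TMM, quasi-likelihood F test, two-sided, Benjamini-Hochberg over the 18251 loci), with 4 residual degrees of freedom. SE is the fold change over the root of F. The procedure was tried on simulated counts with planted changes. That simulation held no shift of single libraries, so it cannot speak to the dependence of the calls on them. Printed identifiers are the 2 largest rises and 2 largest falls among calls without overlap and with at least 5 CPM in the higher group. Gene lists by locus were written but not used, because the sources pair no locus with a name. The comparison, lists and rules were chosen with earlier results of these data known. Alternatives were RLE factors, other filters, robust fitting, the likelihood ratio test, DESeq2 1.42.0, the compared libraries alone, a replicate block, a term for libraries with over 12% multiply aligned reads (a limit set after seeing the shares), and leaving out each library.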

Additional observations from a re-analysis of the deposited data

Results flagged for a closer look

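For 6 of the loci called between double-shock and early-shock plants, the difference itself differed from that of the late shock in plants without an early shock, by edgeR's interaction test over all loci. On the log2 scale the interaction was 2.52 for LOC_Os04g49660 (chromosome 4), 1.62 for the third largest rise (chromosome 5), -3.21 for LOC_Os09g37330 (chromosome 9), -2.98 for the third largest fall (chromosome 6), -3.16 for the fifth (chromosome 2) and -2.22 for the sixth (chromosome 5). In all, 18 loci had a called interaction, 13 positive and 5 negative, and 17 of the 18 also had an unadjusted p below 0.05 between double-shock and early-shock plants, as did 8.66% of all tested loci. That difference is itself part of the interaction, so the count is a description only. Without late-shock replicate 1 or 2 edgeR called 0 interactions, and without control replicate 1 it called 55, while DESeq2 called 175 on all libraries.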

How the results depend on the processing

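The 13 loci called between double-shock and early-shock plants became 706 without the low-count filter, 164 with the likelihood ratio test, 113 with DESeq2, 6 with the term for multiply aligned reads, 0 with the compared libraries alone and 36 at an adjusted p below 0.1. Without the filter the estimated prior degrees of freedom were infinite, against 4.77 as reported. Leaving out 1 library gave 0 to 28. The 112 calls of the late shock alone became 1291, 603 and 434 in the first 3 of these and 175 with its libraries alone, and 1 to 143 when 1 library was left out. The 18 interactions became 646, 249 and 175, 53 with robust fitting and 28 with the term, and 0 to 55 when 1 library was left out. The 5 loci called in both histories became 184, 39 and 33, 0 with the term and 0 with the compared libraries alone, and 0 to 6 when 1 library was left out. The cause of these shifts was not tested. RLE factors and a filter of 1 CPM each gave 10 calls in the main comparison, all among the 13. With a replicate block there were 14, of which 10 were among the 13, and LOC_Os06g04920, LOC_Os09g37330 and the fourth largest fall lost their calls (edgeR adjusted p = 0.059, 0.066 and 0.066). Same-numbered libraries of the 2 groups deviated together (r = 0.254 across loci), but the labels give the numbers no shared origin and they were not taken as pairs. The gene lists could not be counted under any setting. Over the 8 libraries 3 reads correspond to 0.246 to 0.293 CPM.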
